A study of Mus musculus with 12 samples.

Results

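Mmachc and 8 other genes of vitamin B12 (cobalamin) uptake, processing and use were examined in mouse embryonic stem cells that lose Thap11, the gene for the zinc finger protein Ronin. The genes are Tcn2, Cd320, Lmbrd1, Abcd4, Mmachc, Mmadhc, Mmaa, Mtr and Mtrr, 9 of the 18194 genes measured. They were chosen by name, and every probe set whose platform annotation gives exactly 1 of these symbols was taken, 18 of 45101. Of the 9 genes, Mmachc, Mmadhc, Mmaa and Mtrr have 1 probe set each, Cd320, Abcd4 and Mtr have 2, Lmbrd1 has 3 and Tcn2 has 5. For each gene the probe set with the highest mean log2 intensity over the 12 arrays carries the result, and the others are given beside it.

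Knockout cells were CreERT2; Roninflox/flox and control cells were Roninflox/flox, so that both carried loxP-flanked alleles of Thap11 and only the knockout cells carried CreERT2, a recombinase that tamoxifen activates. Tamoxifen at 0.25 µM was given to both genotypes, and RNA was taken after 1.5 days, 3 days and 6 days, with cells seeded at 100000 per 10 cm2 and split on day 4. Each genotype and day had 2 arrays of total RNA on an Affymetrix mouse design. Since no control carried CreERT2, an effect of the recombinase or of a difference between the lines cannot be told apart from loss of Thap11. Nothing in the labels states that replicate arrays stem from separate cultures, and p-values then reflect only their spread, which may be technical.

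Cobalamin reaches cells bound to transcobalamin, is taken in by a receptor, is freed in the lysosome and passes into the cytosol. There MMACHC strips the upper ligand from the cobalt atom, and MMADHC directs the product either to methionine synthase in the cytosol or to methylmalonyl-CoA mutase in the mitochondrion. In human cells, loss of MMACHC causes combined homocystinuria and methylmalonic aciduria, and its transcription is known to depend on THAP11, the co-regulator HCF-1 and the zinc finger protein ZNF143.

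The targeted gene and the cell type were examined first. Thap11, read by 1 probe set, had RMA intensities of 327 and 354 in knockout cells against 1262 and 1181 in control cells on day 1.5. On day 3 it had 110.2 and 92.7 in knockout cells against 1279 and 1290.1 in control cells, and on day 6 it had 50.6 and 51.5 against 1305 and 1382. Knockout means were thus 27.9%, 7.90% and 3.80% of control means on days 1.5, 3 and 6. The position of this probe set relative to the deletion was not analysed here. Hcfc1, which encodes HCF-1, did not pass the test on any day (log2 fold changes -0.14, 0.02 and -0.14). The 8 embryonic stem cell markers were all bright, with summed intensities of 71478 to 74088 in knockout arrays and 69838 to 72728 in control arrays. On day 1.5 knockout sums were 73897 to 74088 against 70501 to 72728, and on day 6 they were 72048 to 72289 against 69838 to 70034. Sums overlapped on day 3. Limma called 0 of the 8 on day 1.5 (5.93% of all genes higher, 3.98% lower). It called 1 higher and 1 lower on day 3 (13.3% and 10.0%), and 0 higher and 1 lower on day 6 (17.2% and 15.3%). Replicate arrays correlated with r of 0.998 to 0.999 over genes, and array medians were 44.4 to 44.7 on day 3 and 42.4 to 43.0 on the other days.

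Mmachc fell in knockout cells on each of the 3 days, and the difference widened with time. On day 1.5 its intensity was 393 and 424 in knockout cells against 599 and 587 in control cells. By day 3 it was 133 and 147 in knockout cells against 455 and 458 in control cells. On day 6 it was 51.1 and 44.1 in knockout cells against 605 and 598 in control cells. The genotypes did not overlap on any day, and the knockout mean was 68.9%, 30.7% and 7.91% of the control mean on days 1.5, 3 and 6. With 2 arrays per group, groups often fail to overlap by chance alone, so overlap here and below describes the values and is not a test. The share of all genes without overlap was not counted.

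The log2 fold changes of Mmachc (SE 0.079 in each case) were -0.54 on day 1.5 (limma adjusted p = 0.0037), -1.71 on day 3 (adjusted p = 2.0e-06) and -3.66 on day 6 (adjusted p = 1.9e-08). The 95% interval on day 6 was -3.84 to -3.49. In the order of log2 fold changes from the lowest, Mmachc was gene 181 of 18194 on day 1.5, gene 14 on day 3 and gene 2 on day 6. Ordered by level, control cells of day 6 and of day 1.5 stood highest and overlapped each other. Control cells of day 3 came next, followed by knockout cells of days 1.5, 3 and 6, with no overlap between these groups. No detection calls were used here, so whether the knockout intensities of day 6 lie above background is not known. In such bulk RNA, fewer cells that hold the transcript and less transcript per cell cannot be told apart.

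The promoter of Mmachc is shown because the knocked-out protein is a DNA-binding factor with a known motif, whose core ACTACA is part of the word ACTACANNTCC searched here on both strands. The RefSeq window of GRCm38.p6 runs from 250 bases before to 50 bases after the annotated start, at chr4:116708336-116708635 on the minus strand. Capitals mark the 1 match to the word, which lies on the opposite strand to the gene.
Mmachc: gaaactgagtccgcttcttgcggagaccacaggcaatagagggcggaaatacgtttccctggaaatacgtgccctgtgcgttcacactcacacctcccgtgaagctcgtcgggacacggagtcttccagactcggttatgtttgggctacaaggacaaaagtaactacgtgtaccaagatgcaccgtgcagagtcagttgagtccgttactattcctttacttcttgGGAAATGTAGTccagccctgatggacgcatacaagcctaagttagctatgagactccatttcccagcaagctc
Counted from the annotated start as position 1, the match covers positions -23 to -13. Of all 32851 RefSeq windows of this length, 1.98% hold the word and 10.3% hold the core. A match describes letters in the window and was not tested as a binding site.

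Mmachc overlaps its neighbour Ccdc163, a coiled-coil gene on the other strand, by 46 bases at their annotated starts in RefSeq. The same match also lies in the window of Ccdc163, at positions -197 to -187 from the start that this window uses, which is downstream of the first annotated base of the gene. The brightest of the 2 probe sets of Ccdc163 had 106 and 85.4 in knockout cells against 74.9 and 73.8 in control cells on day 1.5. The values of day 3 were 44.0 and 41.7 against 54.4 and 56.9, and on day 6 it had 40.6 and 34.4 against 82.1 and 84.1.

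Ccdc163 did not overlap between genotypes on any day, with knockout cells higher on day 1.5 and lower on days 3 and 6. The log2 fold changes were 0.36 (limma adjusted p = 0.068), -0.38 (adjusted p = 0.032) and -1.15 (adjusted p = 4.7e-05) on days 1.5, 3 and 6. The day 3 call was lost without either knockout or either control array of that day (adjusted p up to 0.14) and did not pass in the fit over all probe sets (adjusted p = 0.055). The other probe set was lower on day 6, at -0.80, and was at -0.24 (adjusted p = 0.23) on day 3. Both carry the s_at suffix of probe sets that can match more than 1 transcript, and whether the pair's probe sets read each other's transcripts was not tested. On the other side of Mmachc lies Prdx1, which was not measured by a probe set with that symbol alone.

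**Figure D1:**
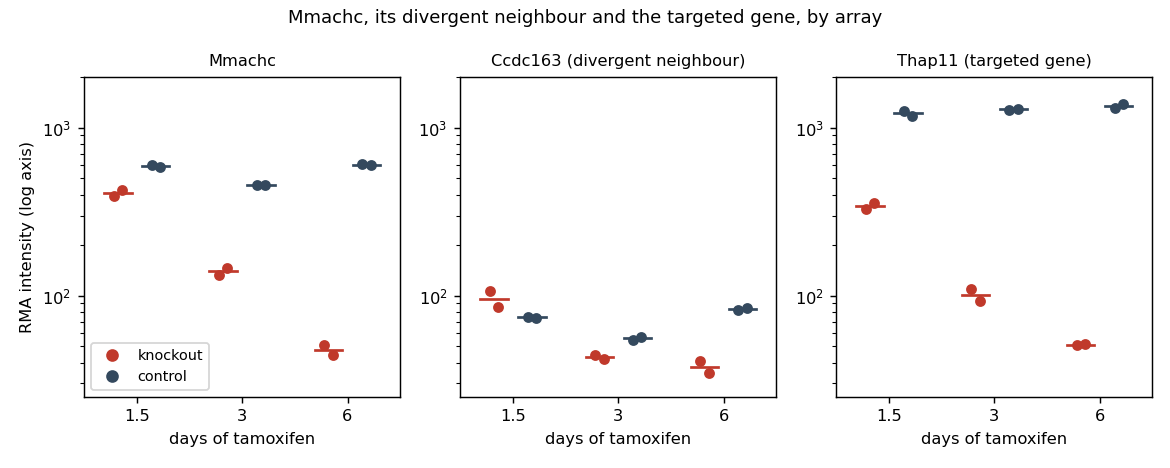
RMA intensity (log axis) of Mmachc, Ccdc163 and Thap11 in each array by days of tamoxifen, knockout left of control, with bars at the means of 2 arrays. Mmachc in knockout cells reached 51.1 and 44.1 on day 6 against 605 and 598 in control cells, while Ccdc163 was below control from day 3.

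The other 8 genes moved far less than Mmachc, by 0.62 or less in either direction on the log2 scale on each day. On day 1.5 limma called 0 of 9 genes higher, against 5.93% of all genes, and 1 lower, Mmachc, against 3.98%. At an unadjusted p under 0.05 there were 2, Mmachc and Mtr, and the share of all genes under it was not counted. On day 3, 3 were higher (13.3% of all genes) and 2 were lower (10.0%). On day 6, 3 were higher (17.2%) and 3 were lower (15.3%). The median log2 fold change of the 9 genes was -0.0015, 0.013 and 0.20 on the 3 days, beside 0.0028, 0.028 and -0.0013 over all genes.

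**Figure D2:**
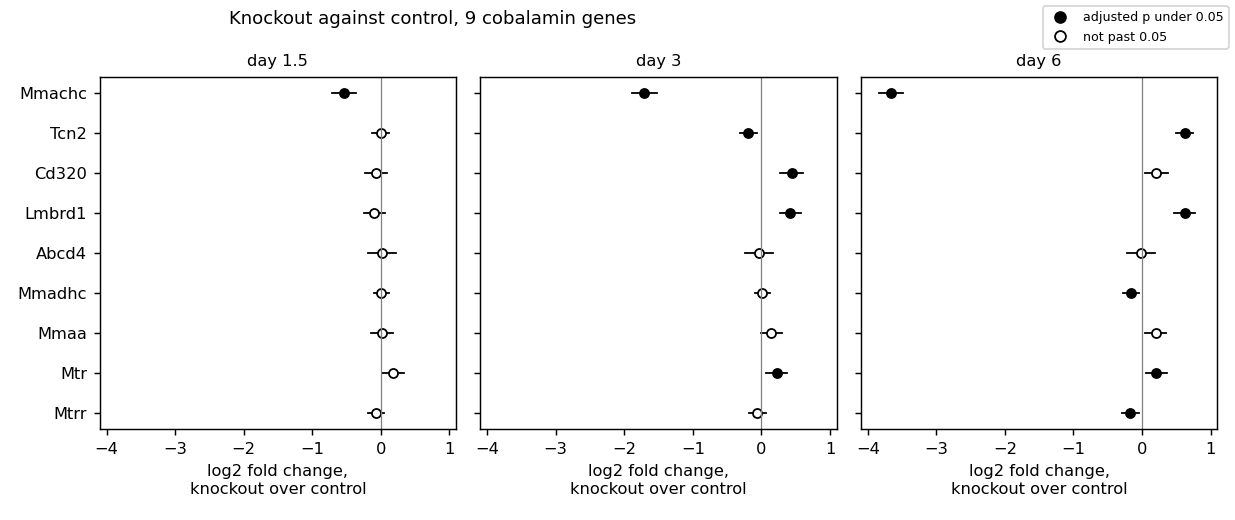
Log2 fold change of knockout over control with its 95% interval for the 9 genes, in a panel per day, filled where limma's adjusted p over all genes was under 0.05. Mmachc stood at -0.54, -1.71 and -3.66, and the other 8 genes lay within 0.62 of 0 on each day.

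Tcn2 encodes transcobalamin, the plasma protein that carries cobalamin to cells, and was higher in knockout cells by day 6. Its brightest probe set had 719 and 744 in knockout cells against 746 and 719 in control cells on day 1.5. The values of day 3 were 953 and 968 against 1085 and 1106, and on day 6 it had 1198 and 1139 against 735 and 786. The genotypes overlapped on day 1.5, knockout cells were lower on day 3, and they were higher on day 6, without overlap on either of those days.

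For Tcn2 the log2 fold changes were 0.00 on day 1.5 (95% interval -0.13 to 0.12), -0.19 on day 3 (limma adjusted p = 0.036) and 0.62 ± 0.056 SE on day 6 (adjusted p = 3.9e-05). Of the other 4 probe sets, 3 were higher on day 6 in the fit over all probe sets, by 0.61, 0.62 and 0.45, and the fourth was at 0.13 (adjusted p = 0.20). All but 1 of the 5 carry the x_at suffix of probe sets that can bind other transcripts, and the 1 without it was at 0.62 (adjusted p = 5.4e-04). On day 1.5 the other 4 ran from -0.04 to 0.31 and none was called, although the highest, at 0.31 (adjusted p = 0.12), and the 1 without the suffix, at 0.29 (adjusted p = 0.090), did not overlap between genotypes. None of the 5 passed in that fit on day 3, and the day 3 call was also lost without either array of knockout day 1.5, knockout day 3 or control day 3. Set against the mean of control days 1.5 and 6, knockout cells of day 3 were higher by 0.36 (adjusted p = 7.0e-04).

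Cd320 encodes the receptor that takes in transcobalamin with its cargo. Its brightest probe set had 958 and 983 in knockout cells against 1011 and 1027 in control cells on day 1.5. On day 3 it had 1006 and 864 against 707 and 668, and on day 6 it had 1053 and 1071 against 938 and 898. Knockout cells were below control cells on day 1.5 and above them on days 3 and 6, without overlap.

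The test called Cd320 on day 3 (log2 fold change 0.44 ± 0.073 SE, limma adjusted p = 0.0024) and not on day 1.5 (-0.07) or day 6 (0.21, adjusted p = 0.055). The day 3 difference stood beside a low level in control cells of that day. Against the mean of control days 1.5 and 6 it was -0.053 (adjusted p = 0.58), and with the mean of both probe sets it was 0.21 (adjusted p = 0.17). The other probe set of Cd320 was dim, at 12.9 to 17.6, and was not called on any day.

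Lmbrd1 and Abcd4 encode the membrane proteins that move cobalamin out of the lysosome, and they differed from each other. The brightest probe set of Lmbrd1 had 298 and 298 in knockout cells against 312 and 325 in control cells on day 1.5. By day 3 it had 342 and 331 against 234 and 269.6, and on day 6 it had 521 and 524 against 335 and 344. Knockout cells were slightly below control cells on day 1.5 and above them on days 3 and 6, again without overlap.

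The log2 fold changes of Lmbrd1 were -0.10 (not called), 0.42 ± 0.068 SE (limma adjusted p = 0.0021) and 0.62 ± 0.068 SE (adjusted p = 1.3e-04) on days 1.5, 3 and 6. In the fit over all probe sets the other 2 were at 0.65 (adjusted p = 0.014) and 0.23 (adjusted p = 0.15) on day 6, and at 0.17 (adjusted p = 0.56) and 0.03 (adjusted p = 0.88) on day 3. The day 3 call of Lmbrd1 was lost with the mean of all probe sets (0.21, adjusted p = 0.13) and against the mean of control days 1.5 and 6 (0.03, adjusted p = 0.73). Abcd4 was not called on any day, with 356 and 321 in knockout cells against 316 and 368 in control cells on day 6. Those groups overlapped, and the log2 fold change of Abcd4 was -0.01 with a 95% interval of -0.22 to 0.19. Its second probe set, at 22.3 to 27.8, was not called either.

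Mmadhc, whose protein partners MMACHC and sorts its product between compartments, had close to the same level in both genotypes until day 6. It had 1321 and 1387 in knockout cells against 1343 and 1348 in control cells on day 1.5, and 1371 and 1316 against 1343 and 1320.5 on day 3. On day 6 it had 1307 and 1284 against 1444 and 1449, without overlap. The log2 fold changes were 0.01 on days 1.5 and 3 and -0.16 ± 0.049 SE on day 6 (limma adjusted p = 0.034). The day 6 call was lost without any 1 of the 4 arrays of that day, with adjusted p up to 0.15.

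Mmaa encodes the mitochondrial protein that loads and protects the cofactor of methylmalonyl-CoA mutase, and it was not called on any day. It had 103 and 99.9 in knockout cells against 86.0 and 91.2 in control cells on day 6, groups that did not overlap. The log2 fold change of that day was 0.20 with a 95% interval of 0.04 to 0.35 (limma adjusted p = 0.059). On days 1.5 and 3 it was 0.02 and 0.15.

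Mtr encodes methionine synthase, which uses methylcobalamin to turn homocysteine into methionine, and Mtrr encodes the reductase that reactivates it. The brightest probe set of Mtr had 436 and 448 in knockout cells against 373 and 409 in control cells on day 1.5. On day 3 it had 371 and 381 against 321 and 323, and on day 6 it had 519 and 508 against 472 and 419. Knockout cells were higher on each day without overlap.

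The log2 fold changes of Mtr, each with an SE of 0.068, were 0.18 (limma adjusted p = 0.15), 0.22 (adjusted p = 0.044) and 0.21 (adjusted p = 0.045) on days 1.5, 3 and 6. Leaving out 1 array ended the day 3 call in 8 of 12 cases (any knockout array or either control array of day 3) and the day 6 call in 9 of 12 (all but the control arrays of day 1.5 and control replicate 1 of day 6). Against the mean of control days 1.5 and 6 the day 3 value was -0.15 (adjusted p = 0.10). The dim second probe set of Mtr was at -0.46, -0.09 and -0.03 and was not called. With the mean of both probe sets Mtr was at 0.067 on day 3 and 0.089 on day 6, not called.

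The RefSeq promoter window of Mtr is the other one among the 9 genes that holds the word ACTACANNTCC, in a stretch at chr13:12258284-12258314 on the minus strand of GRCm38.p6, printed 5′ to 3′ with the match in capitals.
Mtr: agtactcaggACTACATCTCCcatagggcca
The match covers positions -191 to -181 from the start that this window uses, which lies inside the gene as annotated, so the match is nearer to the first annotated base of Mtr. Of the 9 genes, 6 had a window, and 2 of these 6, Mmachc and Mtr, held the word. Of all 27025 genes with a window, 2.27% held it. Mmachc was lower in knockout cells. Mtr was called higher on days 3 and 6, but these calls were lost in 15 of 23 and 15 of 22 alternatives.

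Mtrr had 1036 and 1049 in knockout cells against 1117 and 1066 in control cells on day 1.5, and 1032 and 1039 against 1069.7 and 1088 on day 3. On day 6 it had 1001 and 937 against 1106 and 1071. Knockout cells were lower on each day without overlap, and the difference was small. The log2 fold change was -0.17 ± 0.053 SE on day 6 (limma adjusted p = 0.037), and -0.07 and -0.06, not called, on days 1.5 and 3. The day 6 call was lost in 7 of 12 cases when 1 array was left out, namely a knockout array of day 1.5 or day 3, knockout replicate 2 of day 6 or a control array of day 6.

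**Figure D3:**
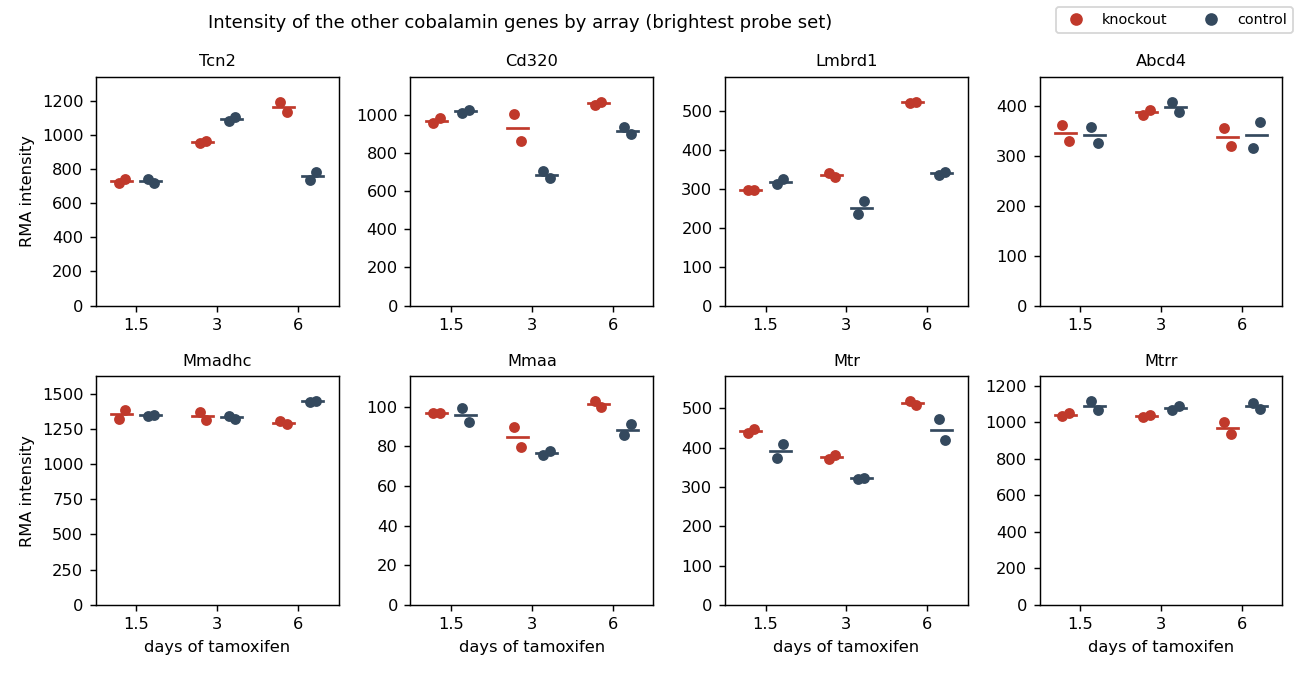
RMA intensity of the brightest probe set of the other 8 genes in each array by days of tamoxifen, knockout left of control, with bars at the means of 2 arrays and each axis from 0. Tcn2 and Lmbrd1 were higher in knockout cells on day 6 (1198 and 1139 against 735 and 786, and 521 and 524 against 335 and 344), and Abcd4 overlapped.

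**Figure D4:**
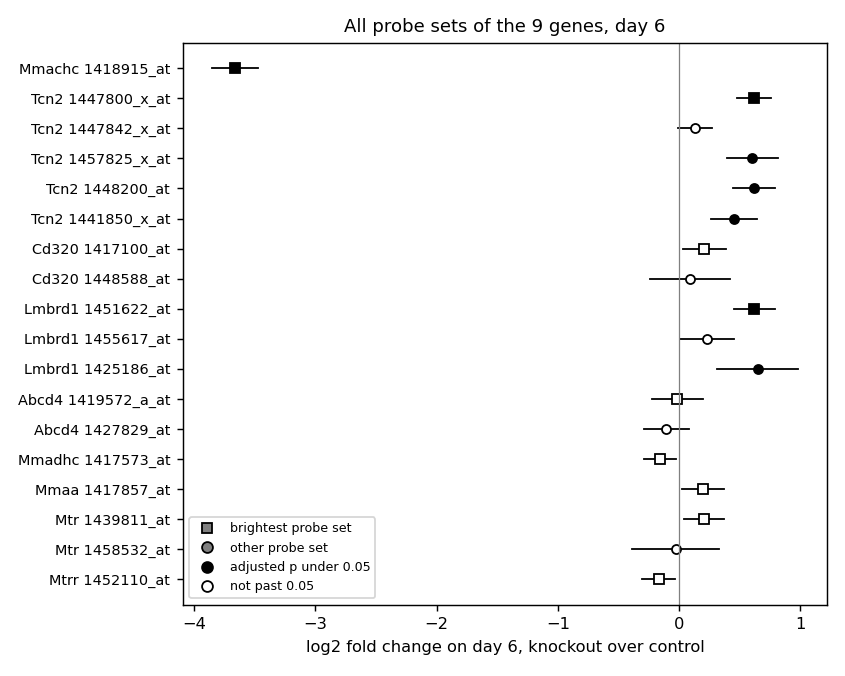
Log2 fold change of knockout over control on day 6 with its 95% interval for all 18 probe sets, squares for the brightest of each gene, filled where the adjusted p over all 45101 probe sets was under 0.05. Of the 5 probe sets of Tcn2, 4 lay between 0.45 and 0.62 and passed, and the calls of Mmadhc, Mtr and Mtrr in the gene fit did not pass in this fit.

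Whether the knockout effect itself changed between days was tested with interaction contrasts between the effects of 2 days, which come from different arrays. Mmachc fell further at each step. Its effect on day 3 was lower than that on day 1.5 by 1.17 (-1.17 ± 0.11 SE, limma adjusted p = 3.5e-04), and that on day 6 was lower than that on day 3 (-1.96 ± 0.11 SE, adjusted p = 4.5e-05).

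Between days 1.5 and 3, 3 of 9 genes had a changed effect, beside 15.0% of all genes, with Cd320 at 0.51 and Lmbrd1 at 0.52 after Mmachc. Between days 3 and 6, 2 of 9 had one, beside 16.4% of all genes, and Tcn2 was the other, at 0.81. Between days 1.5 and 6 it was 3 of 9, beside 19.3% of all genes, with Mmachc at -3.13, Tcn2 at 0.62 and Lmbrd1 at 0.72. In the fit over all probe sets, the other 4 of Tcn2 were at 0.18 to 0.36 for that contrast and the other 2 of Lmbrd1 at 0.21 and 0.65, none of them called. With the mean of all probe sets Tcn2 was at 0.36 (adjusted p = 0.014) and Lmbrd1 at 0.53 (adjusted p = 0.017), and the day 3 minus day 1.5 values of Cd320 and Lmbrd1, 0.20 and 0.23, were not called. With the mean of control days 1.5 and 6 in place of the day 3 controls, an alternative added after seeing the data, the day 3 minus day 1.5 values of Cd320 and Lmbrd1 were 0.02 and 0.13, not called, and that of Mmachc was -1.56.

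Control cells alone also moved on day 3. Relative to control cells of day 1.5, 1 of 9 genes was higher, beside 9.12% of all genes, and 5 were lower, beside 18.2%. Tcn2 had 1085 and 1106 on day 3 against 746 and 719 on day 1.5 (log2 fold change 0.58, limma adjusted p = 1.4e-04), and Cd320 had 707 and 668 against 1011 and 1027 (-0.57, adjusted p = 6.3e-04). Mmachc, Lmbrd1, Mmaa and Mtr were lower by smaller amounts, at -0.38, -0.34, -0.32 and -0.28.

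On day 6 against day 1.5, 0 of the 9 genes were called in control cells by limma, beside 1.09% of all genes higher and 0.473% lower. At an unadjusted p under 0.05 it was 1, Mtr, at 0.19, and the share of all genes under it was not counted. Markers of extraembryonic endoderm moved in the same arrays, with summed intensities over 8 genes of 1127 to 1213 in control cells on day 3, against 3265 to 3341 on day 1.5. Between genotypes the sums were 2064 to 2106 in knockout cells against 3265 to 3341 in control cells on day 1.5. They were 1225 to 1231 against 1127 to 1213 on day 3, and 3498 to 3561 against 3449 to 3552 on day 6. Of these 8 genes limma called 5 lower and 0 higher in knockout cells on day 1.5, beside 3.98% and 5.93% of all genes. It called 1 lower and 2 higher on day 3, beside 10.0% and 13.3%. Day 6 had 3 lower and 0 higher, beside 15.3% and 17.2%, and the median log2 fold change of the 8 was then -0.31. Fibroblast markers had sums over 7 measured genes of 274 to 297 in knockout cells against 374 to 390 in control cells on day 1.5. They were 299 to 330 against 311 to 334 on day 3, and 272 to 274 against 382 to 438 on day 6. On day 6 limma called 3 of the 7 lower and 0 higher, beside 15.3% and 17.2% of all genes. For the 7 the median log2 fold change of that day was -0.29. RMA listed none of these markers at 0. The part of these markers in the results was not tested.

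The 24 other genes of the pathway that were measured included larger changes than the 8 genes beside Mmachc. On day 1.5, 0 of 24 were called by limma, beside 5.93% of all genes higher and 3.98% lower. At an unadjusted p under 0.05 there were 7, and the share of all genes under it was not counted. On day 3, 3 were higher and 10 lower, beside 13.3% and 10.0% of all genes, and on day 6, 6 were higher and 8 lower, beside 17.2% and 15.3%. Their median log2 fold change was 0.036, -0.13 and -0.036 on days 1.5, 3 and 6.

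Among uptake and transport genes, all 5 were called on day 6, 2 higher and 3 lower, beside 17.2% and 15.3% of all genes. Cubn and Amn encode the 2 parts of the receptor that takes in cobalamin with intrinsic factor in the gut and kidney. Cubn had 105 and 105 in knockout cells against 118 and 118 in control cells on day 1.5, and was not called. It had 32.0 and 27.7 against 109 and 119 on day 3, and 102 and 88.3 against 229 and 231 on day 6. Cubn was thus far below control on days 3 and 6, by -1.93 ± 0.087 SE (limma adjusted p = 1.8e-06) and -1.28 ± 0.087 SE (adjusted p = 7.2e-06). Its second probe set passed in the same direction. Both genotypes stood higher on day 6 than on day 3, and the effect changed by 0.66 between them (limma adjusted p = 0.0077).

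Amn was at -0.47 on day 3 and -0.88 on day 6, and Abcc1, an exporter of cobalamin from cells, at -0.38 and -0.70. The other probe set of Abcc1 was at -0.14 and -0.36 on these days and did not pass. Lrp2, an endocytic receptor for transcobalamin in the kidney, was higher on both days, at 0.72 and 0.60. Against the mean of control days 1.5 and 6 the day 3 values of Lrp2 and Abcc1 were -0.11 and -0.13 and were not called. Those of Cubn and Amn, -2.47 and -0.86, passed. Cblif, for intrinsic factor, rose by 0.54 on day 6 at a dim level of 10.7 to 17.4 over all arrays.

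In the methylmalonyl-CoA branch 1 of 10 genes was higher and 4 lower on day 3, beside 13.3% and 10.0% of all genes. Day 6 had 1 higher and 2 lower, a share near the 17.2% and 15.3% of all genes. Mmut, the adenosylcobalamin-dependent mutase, had 552 and 586 in knockout cells against 701 and 719 in control cells on day 6. It fell by 0.32 ± 0.053 SE (limma adjusted p = 0.0015), and Mcee, the epimerase that feeds it, fell by 0.35. On day 3, Mcee was at -0.34, the propionyl-CoA carboxylase subunit Pcca at -0.31, the citramalyl-CoA lyase Clybl at -0.54, and the succinyl-CoA ligase subunits Suclg1 and Suclg2 at 0.32 and -0.19. Measured against the mean of control days 1.5 and 6, the day 3 values of Clybl and Suclg2 were -0.15 and -0.07, not called. Those of Mcee, Pcca and Suclg1 passed, at -0.20, -0.25 and 0.20. Suclg2 was higher on day 6, at 0.28, while its other probe set was at 0.12 and did not pass. The brightest probe sets of Sucla2 and Pccb were not called on any day. The brightest of Mmab, for the enzyme that makes adenosylcobalamin, was at 0.05 on day 6 and not called, while another of its 4 probe sets was at -0.58 and passed. Mmab was named after its values were seen.

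In the methionine cycle and transsulfuration, 1 of 9 genes was higher and 3 lower on day 3, beside 13.3% and 10.0% of all genes. Day 6 had 3 higher and 3 lower, beside 17.2% and 15.3%. Ahcy, which breaks down S-adenosylhomocysteine, had 4847 and 4737 in knockout cells against 8807 and 8635 in control cells on day 6. Cbs, which draws homocysteine into cysteine synthesis, had 137 and 148 against 317 and 297. Both fell clear of the control range, Ahcy by 0.86 ± 0.0505 SE (limma adjusted p = 3.0e-06) and Cbs by 1.11 ± 0.065 SE (adjusted p = 3.1e-06).

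Ahcy and Cbs were also lower on day 3, at -0.29 and -0.42, and Ahcyl1, an AHCY-like protein, was at -0.20 and -0.46 on days 3 and 6. Higher genes were Mat2b, the regulatory subunit of methionine adenosyltransferase, at 0.35 on day 3 and 0.29 on day 6, and on day 6 Ahcyl2 at 0.47 and Cth, the enzyme after CBS, at 0.16. In the fit over all probe sets Cth did not pass on day 6 (limma adjusted p = 0.094). Nor did the other probe sets of Ahcyl2, at 0.24 and 0.16. The bright adenosine kinase gene Adk was not called on any day.

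**Figure D5:**
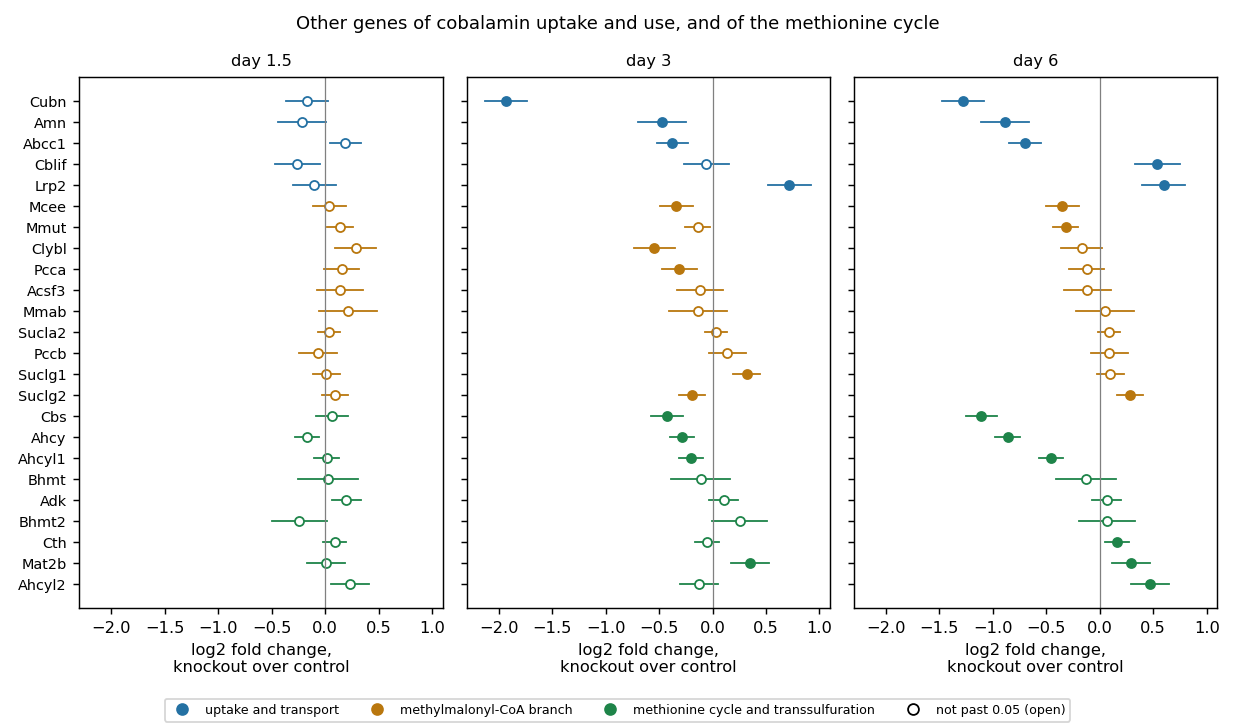
Log2 fold change of knockout over control with its 95% interval for 24 other genes of cobalamin uptake and use and of the methionine cycle, in a panel per day, coloured by role and filled where limma's adjusted p was under 0.05. None was called on day 1.5, and on day 6 Cubn, Cbs, Amn, Ahcy and Abcc1 lay lowest, from -1.28 to -0.70.

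The nearest protein-coding genes on either side of the 9 genes in RefSeq numbered 18, of which 16 were measured. On day 6, 5 of the 16 were higher in knockout cells and 2 were lower, beside 17.2% and 15.3% of all genes. The lower ones were Ccdc163, given above, and Col19a1, which lies 89069 bases from Lmbrd1, at -0.36. Rnd3, which lies 831417 bases from Mmadhc, was the highest, at 1.00. Fastkd3, which overlaps Mtrr by 3 bases, was at 0.12, 0.21 and 0.05 on days 1.5, 3 and 6, and only the day 3 value passed.

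The 5 genes whose pattern over the 12 arrays was most like that of Mmachc were Iftap, Zc4h2, Ube2d1, Galm and Ctu1. They were chosen by their measured values, as the smallest root mean square difference of centred log2 intensities, so their values are a description. That difference was 0.19, 0.21, 0.24, 0.27 and 0.33, and Pearson's r with Mmachc was 0.986 to 0.990 over 12 arrays that share the 6 groups. Iftap, for a protein tied to intraflagellar transport, had 46.4 and 42.0 in knockout cells against 527 and 562 in control cells on day 6. Its other 3 probe sets, all under 40 in each array, were not called.

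The log2 fold changes of day 6 were -3.63 for Iftap, -3.21 for the zinc finger gene Zc4h2, -3.20 for the ubiquitin-conjugating enzyme gene Ube2d1, -2.93 for the galactose mutarotase gene Galm and -2.90 for Ctu1, which acts in tRNA thiolation. On day 1.5 they ran from -0.89 for Ube2d1 to -0.24 for Iftap. Of the 5, all but Galm had a RefSeq window, and each of these 4 held the word ACTACANNTCC, beside 2.27% of all genes with a window. The stretches around the matches are shown beside that of Mmachc to compare the bases on either side. Each is printed 5′ to 3′ on the strand that reads the word, with the match in capitals, in GRCm38.p6.
Mmachc, chr4:116708388-116708418, plus strand: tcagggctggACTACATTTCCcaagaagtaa
Iftap, chr2:101629023-101629053, minus strand: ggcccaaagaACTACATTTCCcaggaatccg
Iftap, chr2:101629074-101629104, plus strand: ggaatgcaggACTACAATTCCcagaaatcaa
Zc4h2, chrX:95658489-95658519, plus strand: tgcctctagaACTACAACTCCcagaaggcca
Ube2d1, chr10:71285303-71285333, minus strand: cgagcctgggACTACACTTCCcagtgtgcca
Ctu1, chr7:43671990-43672020, minus strand: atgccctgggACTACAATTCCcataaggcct
All of these matches lie between positions -63 and 11 from the starts that the windows use. Those starts are not always the first annotated base of the gene.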

How the data were processed

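RNA was measured on 12 arrays, 2 for each genotype and day. The authors deposited an intensity for each probe set; the submitters' processing notes name RMA, without a version. RMA corrects background, equalises the arrays' distributions and summarises probes. The values ran from 5.51 to 34993 on a linear scale, and log2 was taken. The number of arrays limits the precision. The platform annotation gives 1 symbol for 34958 of 45101 probe sets, several for 932 and none for 9211. The brightest probe set of each gene gave 18194 genes, without a filter on dim genes.

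Tests used limma 3.58.1 under R 4.3.3 (a mean per group over all 12 arrays, eBayes, 6 residual and 3.04 prior degrees of freedom), and p-values were adjusted by Benjamini-Hochberg over all genes and called at 0.05. The planned design had assumed log2 values in the file. All probe sets were tested in a second fit over 45101. On simulated data for day 6 over 18194 genes the test recovered 36% of 50 genes changed 1.25-fold, 76% at 1.5-fold, 92% at 2-fold and 100% at 4-fold, with 8 false calls. The simulation used independent normal noise and 50 changed genes at each fold, whereas 5906 genes were called in the data on day 6. The Benjamini-Hochberg cutoff depends on that share, so these rates do not give the recovery in the data.

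The members, the other pathway genes, the markers and the searched word were chosen with earlier results of these data known. The pathway genes named are those called on any day and the 3 brightest others, with Mmab added after its values were seen. Neighbours were taken from RefSeq (GRCm38.p6) as the nearest protein-coding gene on each side. Promoter windows are RefSeq's, 300 bases long. The settings varied were a replicate block (across the 12 arrays, and inside each day), a fit of the compared arrays alone, eBayes with trend and robust, array weights, no genes from the dimmest 40%, the mean of all probe sets, median centring, quantile normalization, an offset of 16 before the log, leaving out each array, and the controls of days 1.5 and 6 for day 3. Plots were drawn with matplotlib 3.10.9.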

Additional observations from a re-analysis of the deposited data

Results flagged for a closer look

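The effect of the knockout differed between days for Mmachc, Cd320, Lmbrd1 and Tcn2 by the limma interaction contrasts. From day 1.5 to day 3 the log2 effect changed by -1.17 for Mmachc, 0.51 for Cd320 and 0.52 for Lmbrd1. From day 3 to day 6 it changed by -1.96 for Mmachc and 0.81 for Tcn2, and from day 1.5 to day 6 by -3.13 for Mmachc, 0.62 for Tcn2 and 0.72 for Lmbrd1. Control cells of day 3 enter the first 2 contrasts, and their own levels of Cd320, Lmbrd1 and Tcn2 differed from those of day 1.5 by -0.57, -0.34 and 0.58. No group had enough arrays for a check of single outlying samples.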

How the results depend on the processing

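Mmachc stayed lower and past the threshold on each day under all alternatives run, 22 on day 1.5, 23 on day 3 and 22 on day 6, as did Tcn2 and Lmbrd1, higher, in all 22 on day 6. The replicate numbers did not pair the arrays: deviations from the group means correlated at -0.057 to 0.17 over 15 pairs of groups, and 1 pair was over 0.1. With the replicate block over all arrays, 4 of 9 genes were called on day 3 and 5 on day 6. With the replicate block within a day, 3 were called on day 3 against 5 in the main setting, 3 on day 6 against 6, and 3 in control day 3 against day 1.5 instead of 6. Only the arrays compared, and array weights, each gave 3 on day 3. The mean of all probe sets gave 1 on day 3 and 1 for day 3 minus day 1.5 instead of 3. There Mmab of day 6 was -0.22 (0.05 in the main setting, not called). eBayes with trend and robust gave 4 for day 6 minus day 3 instead of 2, and 5 for day 6 minus day 1.5 instead of 3. The controls of days 1.5 and 6 in place of day 3 gave 2 on day 3 and 6 for day 6 minus day 3, turned Cd320, Tcn2, Mtr and Lrp2 of day 3 to -0.053, 0.36, -0.15 and -0.11, turned Tcn2 and Mtr of day 3 minus day 1.5 to 0.37 and -0.33, and turned Cd320 and Mtr of day 6 minus day 3 to 0.26 and 0.36. The cause of these changes was not tested. Without 1 array the number of the 9 genes called was 1 on day 1.5, 3 to 5 on day 3, 3 to 6 on day 6, 3 for day 3 minus day 1.5, 2 to 3 for day 6 minus day 3, 3 to 4 for day 6 minus day 1.5, 5 to 6 in control day 3 and 0 in control day 6. The lowest counts came on day 3 without either array of knockout day 1.5, control day 3 or knockout day 3, where Tcn2 and Mtr were lost, and on day 6 without control replicate 2 or knockout replicate 2 of that day. Cd320 and Mmaa of day 6 were gained without either knockout array of day 3 (adjusted p = 0.019 and 0.037). Over all genes the calls were 1803 on day 1.5 (455 to 2756 over the alternatives), 4250 on day 3 (2506 to 5259) and 5906 on day 6 (4314 to 6652). For day 3 minus day 1.5, day 6 minus day 3 and day 6 minus day 1.5 they were 2723 (1559 to 3920), 2991 (1757 to 5050) and 3516 (2546 to 4685). For control day 3 and control day 6 against day 1.5 they were 4966 (2277 to 5853) and 285 (0 to 894). Of the other pathway genes 0 to 5, 7 to 14 and 12 to 15 were called on days 1.5, 3 and 6.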

Other observations

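All measured genes with a RefSeq promoter window, those named above included, were grouped by whether a window holds the word ACTACANNTCC, as a description with no test. Of these genes 512 held it and 13941 did not. The word was chosen with earlier results of these data known, and the groups were not matched for intensity. On day 6, 216 of the 512 were lower in knockout cells (42.2%) and 118 were higher (23.1%), beside 14.5% lower and 17.3% higher among those without it. On day 3, 32.6% were lower and 21.7% higher with the word, beside 9.42% lower and 13.1% higher without it. On day 1.5, 8.98% were lower and 9.57% higher with the word, beside 3.85% lower and 5.88% higher without it. The median log2 fold change on day 6 was -0.12 with the word and 0.0008 without. Mmachc belongs to the lower group on all 3 days. Mtr belongs to the higher group on days 3 and 6, by calls that were lost in 15 of 23 and 15 of 22 alternatives.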
